A study of Homo sapiens with 8 samples.

Results

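AP-1 and immediate early genes were followed in U937 cells across 8 poly(A) RNA libraries. The set was given by name and holds 10 genes: FOS, FOSB, FOSL1, FOSL2, JUN, JUNB, JUND, EGR1, IER2 and DUSP1. All 10 were found, among 22653 listed entries in all, and all 10 passed the filter on low counts. U937 is a human monocytic cell line, and every library came from U937 SLC19A1-/- cells, which lack the reduced folate carrier. Each of the 2 lines also carried a doxycycline-inducible, Flag-tagged transporter for cationic amino acids, SLC7A1 in one and SLC7A2 in the other. A line was left untreated or given doxycycline (dox) at 1 µg/mL for 24 h, with 2 libraries, numbered 1 and 2 in the titles, in each of the 4 groups. No line without a construct received dox, so the drug and the transporter cannot be told apart. The labels name no separate cultures, so a p-value measures only the spread between these libraries, which may be technical. In bulk RNA, fewer expressing cells and less RNA per cell cannot be told apart.

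AP-1 is a dimer of basic leucine zipper proteins. Jun proteins pair with each other or with Fos proteins, while Fos proteins need a Jun partner, and the dimers bind DNA at TGANTCA or at cAMP response elements. Immediate early genes are switched on within minutes of a stimulus, without new protein synthesis, largely through MAP kinases acting on SRF with its partners and on CREB, and their mRNAs decay fast. In the monocyte lineage AP-1 and EGR1 are known for their part in differentiation towards macrophages.

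Promoter sequence is shown for 4 members, since 2 of them, EGR1 and FOSB, had the widest ranges over the libraries, while FOS and DUSP1 did not follow them. Each run is the 250 bases before the RefSeq start in GRCh38.p14, read 5′ to 3′ on the strand of the gene. Capitals mark matches to TGACGT (the core of a cAMP response element, either strand), to the CArG box bound by SRF (either strand) and to TATAAA (strand of the gene).
EGR1, chr5:138465229-138465478, plus strand: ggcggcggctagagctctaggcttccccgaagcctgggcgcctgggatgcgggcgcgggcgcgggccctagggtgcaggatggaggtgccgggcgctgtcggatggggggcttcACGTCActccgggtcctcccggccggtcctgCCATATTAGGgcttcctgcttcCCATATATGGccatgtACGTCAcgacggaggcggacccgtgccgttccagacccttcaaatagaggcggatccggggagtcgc
FOSB, chr19:45467746-45467995, plus strand: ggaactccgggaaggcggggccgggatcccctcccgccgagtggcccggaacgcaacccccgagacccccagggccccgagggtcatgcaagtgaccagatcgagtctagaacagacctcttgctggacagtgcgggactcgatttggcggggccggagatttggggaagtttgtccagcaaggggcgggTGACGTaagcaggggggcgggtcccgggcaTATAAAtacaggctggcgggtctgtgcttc
FOS, chr14:75278578-75278827, plus strand: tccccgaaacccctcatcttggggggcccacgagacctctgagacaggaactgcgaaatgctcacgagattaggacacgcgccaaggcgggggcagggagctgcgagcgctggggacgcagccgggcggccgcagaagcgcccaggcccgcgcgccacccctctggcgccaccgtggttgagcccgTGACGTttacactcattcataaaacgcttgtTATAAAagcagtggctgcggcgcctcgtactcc
DUSP1, chr5:172771196-172771445, minus strand: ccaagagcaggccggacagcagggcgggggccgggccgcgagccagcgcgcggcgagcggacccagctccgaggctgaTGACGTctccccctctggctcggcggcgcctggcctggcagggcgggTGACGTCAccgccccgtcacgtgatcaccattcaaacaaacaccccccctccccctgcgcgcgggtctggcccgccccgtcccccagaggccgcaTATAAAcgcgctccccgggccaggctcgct
EGR1 held both of the CArG boxes found among the members, at 105 to 96 and 83 to 74 bases before its start, and TGACGT matches at 136 to 131 and 67 to 62. FOSB held TGACGT at 60 to 55 and FOS at 64 to 59 bases before the start, each with a TATAAA downstream of it, at 30 to 25 and 33 to 28. DUSP1 held 3 matches to TGACGT, of which a pair overlapped as both strands of 1 site. Of the 9 members with a promoter in the table, 1 held a CArG box, 6 held TGACGT (FOS, FOSB, FOSL2, JUND, EGR1 and DUSP1), 4 held TATAAA and 0 held TGANTCA. Over all 35116 promoters of the same length the shares were 1.16%, 7.10%, 6.80% and 6.57%. A match describes the letters only and is no evidence of binding, and a window without one says nothing of the factor.

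Libraries held 17309132 to 18441833 expected counts, so 3 counts were 0.163 to 0.173 CPM (counts scaled to library size). The cell label was checked against marker genes in TPM, the deposited level per transcript length. CD33 had 81.1 to 94.3 TPM, SPI1 139 to 174 and LYZ 135 to 275, while CD14, CSF1R and MPO stayed at or under 0.53. T cell markers summed to at most 0.31 TPM, with CD3E, CD3G and TRAC at 0 in all libraries. B cell markers summed to 21.63 to 34.67 TPM, nearly all from CD79A (20.57 to 34.05), with MS4A1 at 0. KLF1, an erythroid transcription factor, had 2.91 to 5.67 TPM. Fibroblast markers summed to 15.03 TPM in the SLC7A2 no-dox library numbered 2 and to 0.66 to 2.05 in the other 7. Epithelial markers were highest in that same library, at 6.26 TPM against 1.74 to 3.62 in the others. On the first principal component both SLC7A2-line libraries numbered 2 lay apart at 55.3 and 68.1, and both SLC7A1-line libraries numbered 1 lay at the other end, at -52.7 and -34.8. The remaining 4 lay between -17.2 and -3.67.

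Among the Fos proteins FOSL1 (Fra-1; Entrez 8061, chromosome 11, 65892049 to 65900545) gave the most mRNA. In the SLC7A1 line it had 20.1 and 8.96 TPM without dox and 22.6 and 10.4 with dox, numbers 1 and 2 in that order. In the SLC7A2 line it had 10.7 and 17.7 TPM without and 12.7 and 18.5 with dox. The libraries numbered 1 were thus the high ones in the SLC7A1 line and the low ones in the SLC7A2 line, whatever the dox. FOSL2 (Fra-2; chromosome 2, 28392858 to 28417317) was flatter, and its SLC7A1-line values were 7.53 and 6.32 TPM without and 7.40 and 4.36 with dox. The SLC7A2 line had 5.75, 7.98, 4.58 and 7.27 TPM in the same order. FOS itself (Entrez 2353, chromosome 14, 75278828 to 75282230) was low. The SLC7A1 line had 2.47 and 4.36 TPM without and 3.79 and 2.74 with dox, and the SLC7A2 line 2.68, 1.68, 2.53 and 2.01.

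FOSB (Entrez 2354, chromosome 19, 45467996 to 45475179) was close to silent in 6 libraries and not in the other 2. It had 8.66 TPM in the SLC7A1 no-dox library numbered 1 and 10.4 in its dox partner. The other 6 libraries had 0.21 to 0.57 TPM, from 10.7 to 28.5 expected counts against 482 and 551. FOSB therefore made up 22.3% and 23.5% of the summed Fos family TPM in those 2 libraries and 1.09% to 2.62% in the rest. The FOSB counts were fractional in all 8 libraries, and those of IER2 in all but 1, so some of their reads were shared between genes or other entries.

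**Figure D1:**
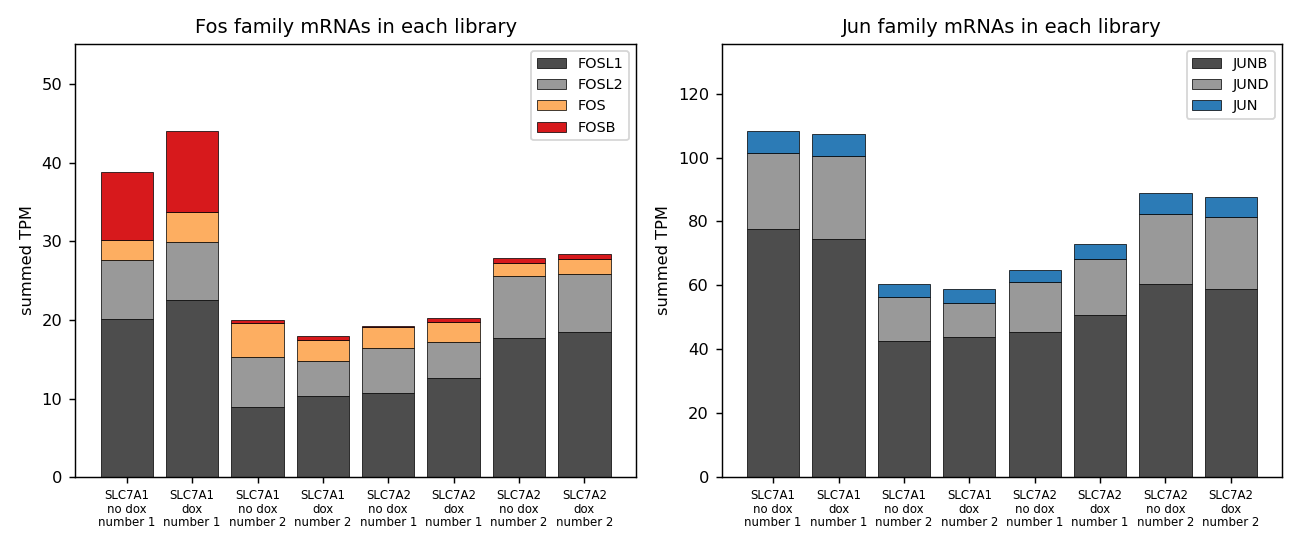
Summed TPM (vertical axis) of the Fos family (left) and the Jun family (right) in each of the 8 libraries (horizontal axis), with the colours showing each gene. FOSB is visible mainly in both SLC7A1-line libraries numbered 1, and JUNB holds 67.2% to 74.2% of the Jun family in every library.

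The Jun family was led by JUNB (chromosome 19, 12791486 to 12793315), which often restrains Jun-driven transcription. JUNB had 77.8 and 42.7 TPM without and 74.6 and 43.7 with dox in the SLC7A1 line. In the SLC7A2 line it had 45.3 and 60.3 TPM without and 50.8 and 58.9 with dox. It held 67.2% to 74.2% of the summed Jun family TPM, against 18.5% to 25.6% for JUND and 5.78% to 7.51% for JUN, so the makeup of this family barely moved while its total ran from 58.9 to 108 TPM. JUND (chromosome 19, 18279694 to 18281622), the member usually expressed without a stimulus, had SLC7A1-line values of 23.78 and 13.71 TPM without and 25.95 and 10.89 with dox. The SLC7A2 line gave 15.84, 21.96, 17.35 and 22.45 TPM. JUN (chromosome 1, 58780791 to 58784047), the strongest activator of the family, ranged from 3.75 to 6.87 TPM, with 6.87 and 6.71 in the SLC7A1-line libraries numbered 1 and 6.68 and 6.30 in the SLC7A2-line libraries numbered 2. The Fos family total was lower than the Jun total in each library, with a ratio of 0.279 to 0.411. RefSeq places HOOK2 over part of JUNB, and whether reads were assigned by strand was not given, so reads of both genes could mix. The JUNB counts were whole in all 8 libraries, unlike those of FOSB and IER2, so no reads divided with another entry were seen.

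EGR1 (Entrez 1958, chromosome 5, 138465479 to 138469303), a zinc finger transcription factor, had 19.63 and 3.47 TPM without and 11.98 and 3.07 with dox in the SLC7A1 line. In the SLC7A2 line it had 4.90 and 1.61 TPM without and 5.06 and 1.79 with dox. Each library numbered 1 was above its number 2 partner, in both lines. IER2 (chromosome 19, 13150411 to 13154911), a nuclear early response protein, had the highest mean of the 10 genes. The SLC7A1 line had 126.55 and 45.21 TPM without and 101.23 and 47.56 with dox, and the SLC7A2 line 50.45, 55.23, 51.72 and 50.30. Only the SLC7A1-line libraries numbered 1 left a range of 45.2 to 55.2 TPM. DUSP1 (chromosome 5, 172768096 to 172771195), a phosphatase that turns MAP kinases off, was the lowest by mean, at 1.14 to 2.28 TPM from 32 to 57 counts, with no library apart.

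**Figure D2:**
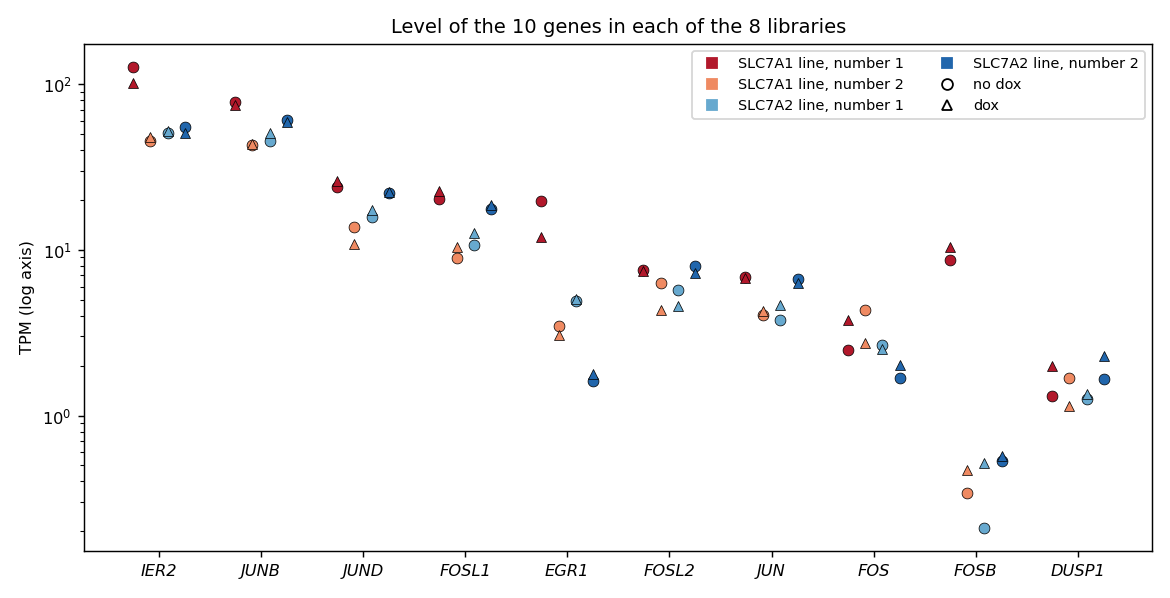
TPM on a log axis (vertical) of each of the 10 genes (horizontal, ordered by mean) in each library, with colour for line and number and shape for dox. Circles and triangles of 1 colour lie closest for JUND and JUNB and further apart for FOSB, EGR1, FOS and DUSP1. Both SLC7A1-line libraries numbered 1 stand highest for IER2, JUNB, JUND, FOSL1, EGR1, JUN and FOSB.

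Ordered by mean TPM over the 8 libraries the genes ran IER2 (66.0), JUNB (56.8), JUND (19.0), FOSL1 (15.2), EGR1 (6.44), FOSL2 (6.40), JUN (5.41), FOS (2.78), FOSB (2.71) and DUSP1 (1.58). JUNB was above JUND, JUND above FOSL1 and FOSL1 above EGR1 in 8 of 8 libraries. FOSL2 was above JUN and JUN above FOS in 7 of 8. The other steps were less even. IER2 was above JUNB in 6 of 8 libraries, EGR1 above FOSL2 in 3 of 8 and FOS above FOSB in 6 of 8, and FOSB passed DUSP1 in only 2 of 8.

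The spread between the libraries of a group was wide for these genes. On log2 CPM (scaled by TMM, with a prior count of 2) the median SD within groups was 0.50 over the 10 members, against 0.28 over all 17503 entries tested and 0.18 over the 5355 entries that averaged 5 log2 CPM or more. FOSB had an SD of 2.28, above that of 99.0% of the entries, and EGR1 1.41, above 95.7%. IER2 had 0.68, FOSL1 0.64 and JUND 0.55, while FOSL2 (0.34) and DUSP1 (0.33) were the steadiest. The picture changed when the libraries were paired by line and number in place of line and dox. The median SD within such pairs was 0.16 over the members, against 0.18 over all entries and 0.10 over the 5355 entries of higher level. JUND had 0.10, JUNB 0.11 and FOSL1 0.13. FOSB still had 0.43 and EGR1 0.29. Across all 8 libraries the highest value of FOSB was 42.0 times the lowest, that of EGR1 13.9 times and that of IER2 3.19 times.

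Dox in the SLC7A1 line asked whether induction of SLC7A1 moved these genes. No member passed the test (edgeR quasi-likelihood, Benjamini-Hochberg over all entries), and the share called over all 17503 entries was 0%. EGR1 had a mean of 11.6 ± 11.4 TPM without and 7.53 ± 6.30 with dox (SD, n = 2) and a log2 fold change of -0.70 ± 1.00 (SE, adjusted p = 1). FOSB had 4.50 ± 5.88 and 5.42 ± 7.00 TPM (SD, n = 2) and 0.16 ± 1.45. The other 8 genes had log2 fold changes of -0.27 (IER2) to 0.13 (FOSL1), with 7 of the 10 below 0 and a median of -0.07 against -0.003 over all entries. An unadjusted p under 0.05 was reached by 0 members and by 222 entries. DESeq2 called 9 entries and limma on TPM 2, no member among them. These fits did not pair libraries by number. When edgeR compared partners of 1 number, EGR1 had -0.50 ± 0.20 and FOSB 0.30 ± 0.30 (SE), and 0 members passed.

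Dox in the SLC7A2 line gave the same count of 0 members, again with 0% of entries called. Log2 fold changes ran from -0.20 for FOSL2 to 0.47 ± 1.72 (SE) for FOSB, with 4 of 10 above 0 and a median of -0.01 against 0.01 over all entries. EGR1 had 3.26 ± 2.33 TPM without and 3.43 ± 2.31 with dox (SD, n = 2). JUNB had 52.8 ± 10.6 and 54.9 ± 5.68 TPM (SD, n = 2). DESeq2 called 10 entries and limma 2, and neither called a member. With partners of 1 number compared in edgeR, FOSB had 0.52 ± 0.35, FOSL2 -0.21 ± 0.11 and EGR1 0.02 ± 0.22 (SE), and 0 members passed. The difference between the dox effects of both lines was called for 0 members and 0% of entries, with values from -0.10 for FOSL2 to 0.71 ± 1.44 (SE) for EGR1.

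Dox across both lines, additive for line, moved the members by -0.36 ± 0.69 (EGR1) to 0.29 ± 1.04 (FOSB) on the log2 scale (SE), again with 0 members and 0% of entries called by edgeR, and 261 entries at an unadjusted p under 0.05. Within the same-numbered pairs the sign often differed. EGR1 changed by -0.83 and -0.09 log2 units in the SLC7A1 pairs numbered 1 and 2, and by 0.01 and 0.04 in the SLC7A2 pairs. FOS changed by 0.49, -0.57, -0.12 and 0.14, and IER2 by -0.44, 0.17, 0.0005 and -0.25. FOSL2 was lower with dox in 3 of the 4 pairs, by 0.20 to 0.26, and changed by 0.001 in the other. FOSB was higher in 3 of 4 pairs, including 1.08 in the SLC7A2 pair numbered 1, where it rested on 10.7 and 25.3 counts. With the replicate block, which compares partners of 1 number within a line, edgeR called 3 entries and still 0 members, and the SEs shrank. FOSL2 then had -0.16 ± 0.07 (adjusted p = 0.837), FOSB 0.39 ± 0.21 (0.842), EGR1 -0.26 ± 0.17 (0.856) and JUNB -0.02 ± 0.08 (0.977).

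**Figure D3:**
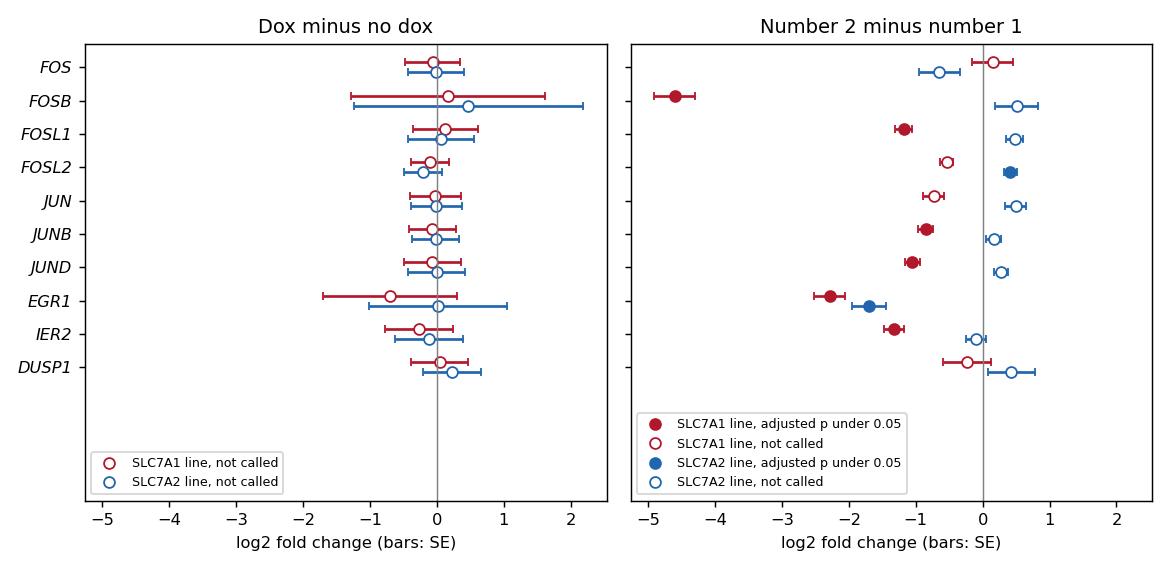
Log2 fold changes (horizontal axis, bars show SE) of the 10 genes (vertical axis) for dox within each line (left) and for libraries numbered 2 against 1 within each line (right), with filled points under an adjusted p of 0.05. The dox panel has no filled point, and the right panel has 6 in the SLC7A1 line and 2 in the SLC7A2 line.

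The lines themselves were set against each other over both dox states, with 4 libraries each. By edgeR all 10 members had lower fitted levels in the SLC7A2 line, with a median of -0.26 log2 units against -0.004 over all entries. However, 0 members passed and 0% of entries were called. The direction depended on the scale, since limma on TPM placed JUND (0.13), DUSP1 (0.07) and FOSL1 (0.01) above 0 and the others below. In edgeR, unadjusted p-values under 0.05 were reached by FOSB (-3.63 ± 1.12 SE, adjusted p = 0.321) and FOS (-0.70 ± 0.27, adjusted p = 0.369). EGR1 had -1.60 ± 0.70 and IER2 -0.77 ± 0.34. Without both SLC7A1-line libraries numbered 1, an omission chosen after seeing the data, 8 of the 10 genes turned direction, FOSB to 0.03, IER2 to 0.04 and JUND to 0.53 among them. EGR1 came to -0.06, while FOS kept -0.76 ± 0.34 (adjusted p = 0.795). The values of FOSB and IER2 in this comparison rest on those 2 libraries. For EGR1 that omission sets SLC7A1-line libraries numbered 2 against both numbers of the other line, and among libraries numbered 2 alone EGR1 had 8.49 and 7.99 normalised CPM in the SLC7A1 line, above the 3.69 and 3.79 of the SLC7A2 line. DESeq2 called 349 entries here and 0 members.

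Libraries numbered 2 were then set against those numbered 1 over all 4 groups. The number is only a name in the titles, and the labels do not say what it marks. EGR1 was lower in number 2 in 4 of 4 groups, with a log2 fold change of -1.996 ± 0.19 (SE) that missed the edgeR threshold (adjusted p = 0.0835). It passed DESeq2, as its only called member among 1107 called entries, at an adjusted p of 9.73e-13. Over all entries edgeR called 1, or 0.00571%, EIF3CL, named after its value was seen. IER2 had -0.71 ± 0.27 (adjusted p = 0.237) and FOSB -2.31 ± 1.20 (0.347). When edgeR took number within each line and averaged both lines, 5 members passed: EGR1 (-1.99 ± 0.17, adjusted p = 0.0146), FOSB (-2.05 ± 0.22, 0.0163), IER2 (-0.71 ± 0.10, 0.0204), JUND (-0.39 ± 0.08, 0.0330) and JUNB (-0.34 ± 0.08, 0.0422).

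Number was therefore tested within each line, additive for dox, a comparison added after seeing the data. It sets 2 libraries against 2, with 3 residual degrees of freedom in the fit. In the SLC7A1 line 6 of the 10 members fell in number 2 and 0 rose, where edgeR called 1.77% of all entries, 1.16% lower and 0.611% higher. Log2 fold changes were -4.605 ± 0.30 for FOSB (SE, adjusted p = 0.00960), -2.29 ± 0.24 for EGR1 (0.0235), -1.32 ± 0.15 for IER2 (0.0246) and -1.18 ± 0.13 for FOSL1 (0.0235). JUND had -1.05 ± 0.11 (0.0235) and JUNB -0.85 ± 0.11 (0.0289). JUN (-0.73 ± 0.16, adjusted p = 0.0762) and FOSL2 (-0.54 ± 0.10, 0.0574) missed the threshold in edgeR and passed in DESeq2, which called 8 members and 2126 entries. FOS (0.15 ± 0.30) and DUSP1 (-0.23 ± 0.35) did not pass in either tool. Without any 1 of the 4 SLC7A1-line libraries 0 members passed, and without the SLC7A2 no-dox or dox library numbered 1 only 1 did. The fold changes of the 6 genes kept their direction in these fits, from -4.81 to -4.40 for FOSB and from -0.96 to -0.74 for JUNB.

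In the SLC7A2 line the same comparison called 2 members, where 10.9% of all entries were called, 4.14% higher and 6.80% lower. EGR1 fell by 1.70 ± 0.25 log2 units (SE, adjusted p = 0.0203) and FOSL2 rose by 0.41 ± 0.10 (0.0484). FOSL1 (0.48 ± 0.13, adjusted p = 0.0601), JUN (0.49 ± 0.16, 0.0985), JUND (0.27 ± 0.11, 0.155) and FOSB (0.51 ± 0.33, 0.350) had positive values that did not pass, and IER2 had -0.10 ± 0.15. Limma on TPM called 4 members here, EGR1 with FOSL1, JUN and JUNB, and not FOSL2. DESeq2 called 3, EGR1 with FOSL1 (adjusted p = 0.0204) and FOSL2 (0.00518). Without any 1 of the 4 SLC7A2-line libraries 0 members passed, and without any 1 of the SLC7A1-line libraries 1 did.

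The difference between the number effects was tested directly, SLC7A2 line minus SLC7A1 line. It was called for 7 of 10 members, all positive, where 2.86% of the entries were called, 1.40% positive and 1.46% negative. FOSB differed by 5.11 ± 0.44 log2 units (SE, adjusted p = 0.0197), FOSL1 by 1.66 ± 0.18 (0.0209), JUND by 1.33 ± 0.15 (0.0244), JUN by 1.23 ± 0.22 (0.04998), IER2 by 1.22 ± 0.21 (0.0453), JUNB by 1.02 ± 0.15 (0.0365) and FOSL2 by 0.95 ± 0.14 (0.0345). EGR1 had 0.59 ± 0.34 (adjusted p = 0.375), FOS -0.79 ± 0.44 and DUSP1 0.66 ± 0.50. JUN lay at the threshold, with 0.0511 under the scaling of DESeq2 in edgeR and 0.0567 without a filter. With 1 library left out the count fell to 0 for each of the 8 libraries.

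By raw order, 8 members were higher in both SLC7A1-line libraries numbered 1 than in the other 6 on normalised CPM (all but FOS and DUSP1), where 12.6% of all entries were, and 7 on TPM, where FOSL2 overlapped and 7.63% of entries did this. EGR1 and FOS were lower in both SLC7A2-line libraries numbered 2 than in the other 6 on both scales, where 17.6% of entries were on CPM and 9.98% on TPM. On either scale 0 members were below the other 6 in the first pair of libraries (12.2% of entries on CPM, 16.9% on TPM) or above them in the second (15.8% and 26.8%). Other measures moved with these libraries. A list of 11 heat shock genes summed to 2241 and 2340 TPM in the SLC7A1-line libraries numbered 1, to 3683 to 4260 in the 4 libraries between, and to 6630 and 6645 in the SLC7A2-line libraries numbered 2. HSPA8, a constitutive chaperone, had 281 and 266 TPM, 605 to 751 and 1786 and 1651 in the same sets. Summed monocytic markers did not set the SLC7A1-line libraries numbered 1 apart, at 5185 and 3741 TPM against 3980 to 4762 in the 4 between, and were lowest in the SLC7A2-line libraries numbered 2, at 3094 and 2573. ELANE, AZU1 and PRTN3 made up most of that sum, while LYZ had 275 and 226 TPM in those last 2 libraries. Median length minus effective length, which follows fragment size, was 267 and 269 bases in the SLC7A1-line libraries numbered 1 and 272 to 284 in the others. The part of these in the results on the 10 genes was not tested.

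Other immediate early genes were taken from a fixed list, of which 24 of 29 passed the filter. In edgeR dox called 0 of them in either line, with medians of 0.11 and -0.02 log2 units. Number 2 against 1 in the SLC7A1 line called 6 lower and 1 higher, where 1.16% and 0.611% of all entries were. In that comparison 20 of 24 were below 0, with a median of -0.78 against -0.001 over all entries. PPP1R15A (GADD34), which reverses eIF2 phosphorylation, had 81.2 and 93.2 TPM in the SLC7A1-line libraries numbered 1 and 27.5 to 37.4 in the other 6. EGR3, a relative of EGR1, had 155 and 124 counts in those 2 libraries and 0 to 4 in the rest. ID2, an inhibitor of helix-loop-helix factors, fell by 1.53 ± 0.18 (SE, adjusted p = 0.0267). MCL1, a short-lived survival protein of the BCL2 family, fell by 1.04 ± 0.11 (0.0235). NR4A1, an orphan nuclear receptor, fell by 1.03 ± 0.13 (0.0274), and NFKBIA, the NF-kappaB inhibitor, fell by 0.87 ± 0.12 (0.0303). TNFAIP3 (A20), another NF-kappaB inhibitor, rose by 1.44 ± 0.19 (0.0301). In the SLC7A2 line the number called 0 of the 24, where 4.14% of all entries were called higher and 6.80% lower. There 19 were above 0, with a median of 0.28. PLAUR, the urokinase receptor and with PPP1R15A the highest of the list by TPM, had 63.84 to 86.78 TPM.

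Other basic leucine zipper partners lay mostly below 0 by number in the SLC7A1 line, 10 of 12, with a median of -0.40. In the SLC7A2 line 9 of 12 lay above 0, with a median of 0.37. Over all entries the medians were -0.001 and 0.01. Of 12 of 14 past the filter edgeR called 1 by number in the SLC7A1 line, MAFK, a small Maf protein, at -0.95 ± 0.10 (SE, adjusted p = 0.0215), and 0 in the SLC7A2 line. Over all entries the shares called were 1.77% in the SLC7A1 line, with 1.16% lower, and 10.9% in the SLC7A2 line. ATF3, the stress-induced member with the widest range of that list, had 4.36 and 5.04 TPM in the SLC7A1-line libraries numbered 1 and 1.01 to 2.63 in the others (not called). BATF and BATF3, which pair with Jun proteins and were the highest of the list, had 68.02 to 123.69 and 41.30 to 92.49 TPM. Feedback inhibitors of MAP kinase signalling were called in both lines. DUSP5, a nuclear ERK phosphatase, fell by 1.28 ± 0.16 (adjusted p = 0.0274) in number 2 of the SLC7A1 line and rose by 0.96 ± 0.16 (0.0233) in number 2 of the SLC7A2 line. DUSP6 (0.85 ± 0.14), SPRY2 (0.89 ± 0.13) and SPRY4 (1.29 ± 0.20) rose with it in the SLC7A2 line, 4 of 12 members where 4.14% of entries were called higher. DUSP4, which had the widest range of that list, was at 0 to 1.26 TPM. The highest of the list, DUSP7 and DUSP2, had 18.05 to 31.32 and 12.90 to 20.30 TPM.

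Upstream kinases and the SRF module were called for 1 of 20 genes in each line, where 1.77% of all entries were called in the SLC7A1 line and 10.9% in the SLC7A2 line. SRF, the factor bound to CArG boxes, had 42.1 and 46.0 TPM in the SLC7A1-line libraries numbered 1 and 28.0 to 38.6 in the others, and fell by 0.63 ± 0.08 (SE, adjusted p = 0.0301) in number 2 of that line. MRTFA, a coactivator of SRF, fell by 0.36 ± 0.08 (0.0395) in number 2 of the SLC7A2 line, and MAP2K4, with the widest range of the list, had 2.34 to 6.76 TPM. MAP2K2 and RPS6KA1, the highest, had 139.07 to 182.59 and 99.58 to 153.41 TPM. Among 10 genes of AU-rich mRNA decay, which shortens the life of early response mRNAs, edgeR called 1 by number in the SLC7A1 line. ZFP36L2, which binds such elements, had 43.1 and 43.0 TPM in the libraries numbered 1 and 82.5 and 71.5 in those numbered 2, a rise of 0.81 ± 0.07 (0.0187), and 71.3 to 75.6 in all 4 libraries of the SLC7A2 line. ZFP36L1 ranged widest there, at 0.09 to 0.77 TPM, and HNRNPD was the highest, at 205.52 to 365.33 TPM. Of the 11 heat shock genes 6 were higher in number 2 of the SLC7A1 line and 7 in number 2 of the SLC7A2 line, where 0.611% and 4.14% of all entries were called higher, with HSPA8 at 1.15 ± 0.10 (0.0187) and 1.06 ± 0.10 (0.0125). HSPH1, which had the widest range of them, rose by 1.17 ± 0.13 (0.0246) and 1.19 ± 0.13 (0.0125). HSPE1, the highest of them, had 769.47 to 1992.50 TPM.

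**Figure D4:**
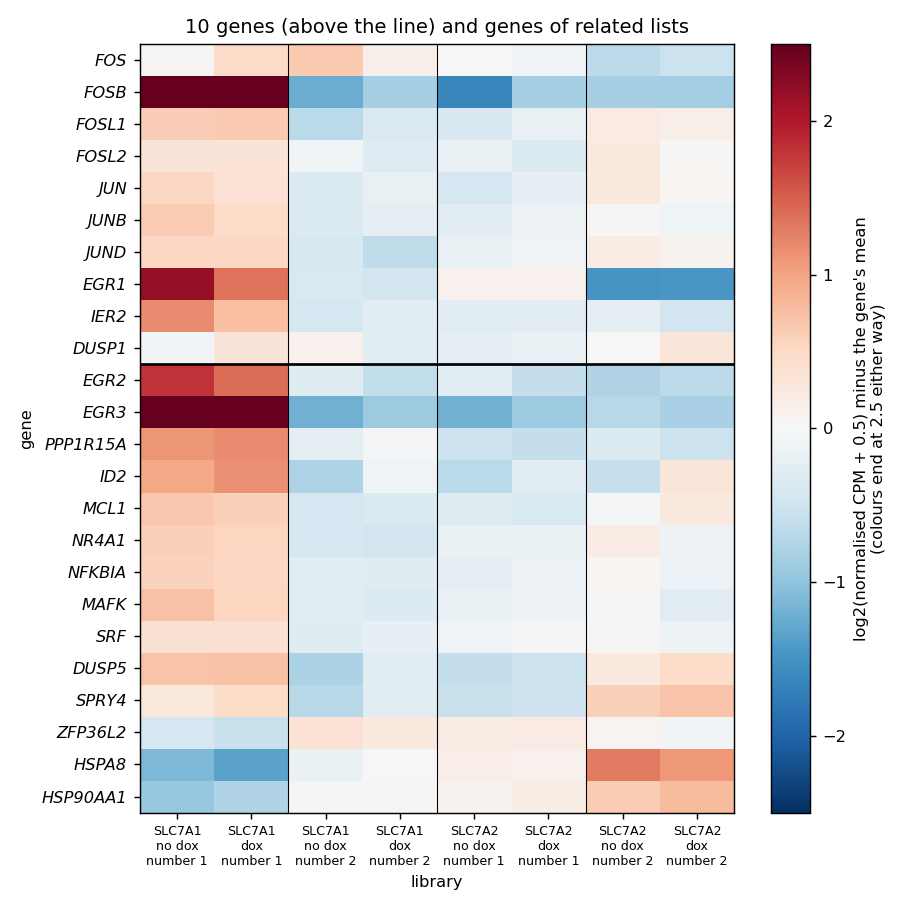
Normalised CPM on a log2 scale with 0.5 added, minus the mean of the gene (colour, red above and blue below), for the 10 genes above the line and 14 genes of related lists, in libraries ordered by line and number (horizontal axis). Columns of 1 line and number resemble each other, with FOSB, EGR1, EGR2 and EGR3 red in both SLC7A1-line libraries numbered 1 and HSPA8 and HSP90AA1 blue there.

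Genes with the most similar profiles were sought among 11557 others with a symbol, by the root mean square difference of centred log2 CPM over the 8 libraries, for members that ranged over more than 1 log2 unit. The profile nearest to FOSB was that of EGR3, at a difference of 0.48 log2 units where FOSB itself had an SD of 1.98, followed by P2RY11 (0.82) and EGR2 (0.91). EGR2 had 1.22 and 0.99 TPM in the SLC7A1-line libraries numbered 1 and 0.06 to 0.16 in the others. Both EGR3 and EGR2 passed the filter only through those libraries numbered 1, so their nearness to FOSB is no separate support. The nearest to EGR1 were CHAC1 (0.42), ANXA2R (0.48) and CREG2 (0.52), and CHAC1 had 15.01 and 20.75 TPM in the first 2 libraries, 3.88 to 5.47 in the 4 between and 1.34 and 1.67 in the SLC7A2-line libraries numbered 2. FOSL1 was nearest to MFSD2A (0.05), CEBPB (0.06) and PLK3 (0.09). JUNB was nearest to NFKBIA (0.05), GPR132 and HIC2 (both 0.10), JUND to CLCF1 (0.09), NR4A1 and ZC3H12A (both 0.11), and IER2 to RGS2 (0.12), ZNF296 and KIZ (both 0.18). FOS stood with HSPA12A (0.12), AAMDC and PITPNM3 (both 0.17). The 8 libraries share lines and numbers, so a small difference describes these libraries only.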

How the data were processed

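Poly(A) RNA was measured in 8 libraries, grouped by their titles. Each deposited file holds 1 library and lists entries above 0, and an absent entry was taken as 0. Per the file headers the authors gave RSEM expected counts, TPM, FPKM (not used) and gene lengths. RSEM 1.3.1, HISAT, DESeq2 1.4.5, Bowtie2 2.3.4.3 and the build hg38 stand, with no role or order, in the submitters' processing notes. Entrez numbers were matched to RefSeq symbols (15340 of 15386), and 7264 assembled loci have none. Coordinates and promoters are those of RefSeq, GRCh38.p14; FOSL1 had no promoter entry.

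Expected counts were rounded, filtered with filterByExpr (minimum count 10, minimum total 15), scaled by TMM and tested by quasi-likelihood (R 4.3.3, edgeR 4.0.16). Adjustment was by Benjamini-Hochberg over 17503 entries at 0.05. SEs were derived from F. DESeq2 1.42.0, limma 3.58.1 on log2(TPM + 0.5), another scaling, no filter, a replicate block and omissions were the alternatives. Tests were checked on simulated data with 1 mean per gene over all libraries, apart from 200 genes changed on purpose. That setting lacks the shared deviations by line and number seen here, so the check does not cover them. The floor of 3 counts covers counting error only. Fixed lists were described by counts; the rule named all 10 members and, from each related list, any gene called in the 6 planned comparisons (there was none), otherwise the 2 highest by mean TPM, and the gene of widest range. List genes called by number within a line were named after their values were seen. The members and lists were chosen with earlier results of these data known. Number 2 minus 1 correlated between dox states at 0.197 and 0.312 over entries within the SLC7A1 and SLC7A2 lines. Between groups of different lines it correlated at -0.024 to 0.15, the last close to the value within the SLC7A1 line. Partners within a line were taken as pairs on this weak basis, from the data and not the labels.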

Additional observations from a re-analysis of the deposited data

Results flagged for a closer look

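The effect of the replicate number differed between the lines, by a test of the difference itself, for 7 of the 10 genes. The differences, SLC7A2 line minus SLC7A1 line, were 5.11 log2 units for FOSB, 1.66 for FOSL1, 0.95 for FOSL2, 1.23 for JUN, 1.02 for JUNB, 1.33 for JUND and 1.22 for IER2. This comparison was added after seeing the data, and with any 1 of the 8 libraries left out none of the 7 passed edgeR.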

How the results depend on the processing

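Counts below are entries called at an adjusted p under 0.05, and for every dox comparison 0 members were called in each fit run. DESeq2 called 9 entries for dox in the SLC7A1 line, 10 in the SLC7A2 line, 20 for the difference of the dox effects, 1 for dox across both lines, 349 for the line, 1107 (and 1 member) for number over all groups, 2126 and 3686 for number in the SLC7A1 and SLC7A2 lines (8 and 3 members) and 2012 for their difference (7 members). Limma on TPM called 2, 2 and 3 entries for dox in the SLC7A1 line, in the SLC7A2 line and their difference. It called 6 for number over all groups, and 2425 entries with 4 members for number in the SLC7A2 line. Without a filter edgeR called 2 entries for dox in the SLC7A1 line, 2 for dox across both lines, 3 for the line and 4 for number over all groups. For number in the SLC7A2 line it then called 1610 entries and 1 member.

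With the replicate block edgeR called 2 entries for dox in the SLC7A1 line, 1 in the SLC7A2 line and 3 across both lines. For the line, whose libraries share only a number, the block called 256 entries and 1 member, EGR1 (-1.46 ± 0.20, edgeR adjusted p = 0.0313). Number within each line, averaged, called 1992 entries and 5 members (FOSB, JUNB, JUND, EGR1 and IER2). Without both SLC7A2-line libraries numbered 2 the counts were 1 for dox across both lines, 1 for the line, and 67 entries and 2 members for number over all groups. Without both SLC7A1-line libraries numbered 1, an omission added after seeing the data, they were 938 entries and 1 member for number over all groups, and 589 entries and 1 member for number in the SLC7A2 line. With 1 library left out at a time the entries ran from 0 to 1 for dox in the SLC7A2 line, 0 to 1 for the line, 0 to 3 for number over all groups, 1 to 337 and 0 to 1541 for number in the SLC7A1 and SLC7A2 lines, and 1 to 26 for their difference. Members ran from 0 to 6 and 0 to 1 in those lines, and 0 for the difference. Such fits have fewer samples; the cause of the other changes was not tested. FOSB and DUSP1 rested on as few as 10.73 and 32 counts.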
